A study of Arabidopsis thaliana with 12 samples.

Results

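The 33 genes described here had a moderate or low signal in water-treated Arabidopsis thaliana, and their signal was lower in every proline-treated sample than in any water-treated one. They were chosen by their water and proline intensities among the 692 of 3439 array features that carry exactly 1 gene name. The rule asked for a water mean from 0.1 to below 2 on the deposited scale, a ratio of proline mean to water mean of 0.75 or less, and a highest proline value below the lowest water value. Of 437 features with 1 gene in that water range, 35 met the rule, and 2 of these, LPA19 and GH9B12, were set aside among 19 genes that the rule leaves out. The ratio and the absence of overlap are therefore how the genes were picked, and they are given as descriptions without a test.

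RNA came from wild-type plants of the ecotype Wassilevskija in both groups, 6 samples given water and 6 given 100 mM proline for 3 h. Each sample was measured on 1 array, and the values are relative intensities with exact zeros and a ceiling of 100. The labels attach the time to proline alone, so time and proline cannot be told apart. Neither the plant part nor the origin of the replicates (separate plants, or one extract) is given in the sources used here, so the spread between samples may be technical. With these values, fewer cells of a type and less RNA per cell cannot be told apart.

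Proline is a building block of proteins and an osmolyte that plants accumulate under drought and salt. It is made from glutamate in the cytosol and plastid and broken down again in the mitochondrion, and supplied from outside in excess it is toxic to seedlings. The 33 genes do not form a pathway. By the names, families or motifs of their proteins, 26 were sorted into groups, and for 7 no role is stated here. The groups were RNA and ribosomes (6), DNA and chromatin (5), and plastid lipids and lipid transfer (4). The others were transport and cofactors (2), signalling and regulation (7), and cell walls and glycans (2). A place in a group does not show what a protein does. These groups were made after the genes were known.

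Of the columns, the fewest zeros were 453 and the most 534. All 33 genes had a signal above 0 in each water sample, which the rule fixes because no value is negative. Of them, 31 had one on all 12 arrays. Of 9 markers of green tissue, 6 had a feature with 1 gene, and 5 of these gave a signal, with water means from 1.46 for PSBY to 44.3 for PSBW, while SBPASE was listed at 0 throughout. None of the 8 root markers had such a feature. Summed over the 6 markers, the level was 56.7 to 67.3 in water and 70.9 to 91.1 after proline. PSBW made up most of that sum and was called higher (log2 change 0.58), while PSAN, PSBY and PRK were called lower (-0.80, -0.45 and -0.43) and LHB1B2 was not called (-0.26) in the limma fit described below. With the values as deposited PSBY and PRK were not called (-0.18 and -0.19). The part of these markers in the results was not tested.

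The 33 genes lay low on the scale of 100, like most features, and the depth of the difference varied widely. Water means ranged from 0.108 for AT5G16230 to 1.72 for AT4G25290, and 27 of the 33 lay under 0.5. Among all features on the array they spanned the percentiles from 33.3 to 93.7 of water level, with a median of 56.2 and 22 of the 33 above 50. The ratio of proline mean to water mean had a median of 0.559 and ran from 0.130 to 0.735, being 0.5 or less in 10 genes and above 0.6 in another 10. The median ratio was 0.524 in the 16 genes with a water mean under 0.2 and 0.574 in the 17 brighter ones. Across the 33 genes, which share the same arrays, Spearman's rho between water mean and ratio was 0.405. The rule used both values, and the water mean is the denominator of the ratio, so rho is a description and was not tested. Of the 10 genes with a ratio of 0.5 or less, AT4G25290 was the brightest of all 33. The other 9 had water means of 0.295 or less.

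**Figure D1:**
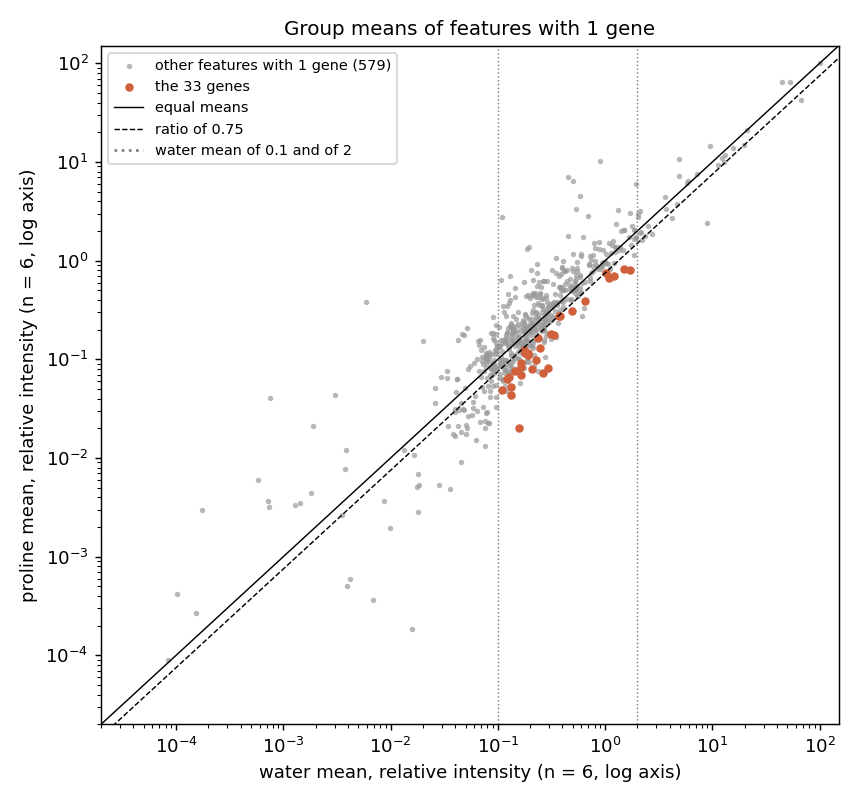
Water mean against proline mean (deposited relative intensity, n = 6 each, both axes logarithmic) for the 612 features with 1 gene whose means were both above 0; the 33 genes are coloured, lines mark equal means and the ratio of 0.75, and dotted lines mark water means of 0.1 and 2. AT1G08845, at 0.157 and 0.0203, lies farthest below the line among the 33 genes, and some dimmer features to the left of the dotted lines lie farther below it.

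Within the water range, 38 of 437 features with 1 gene (8.70%) had all proline values below all water values, and 94 (21.5%) had them above. With the ratio required as well, 35 (8.01%) were lower, and 93 (21.3%) met the same criteria turned round. Over features of any annotation in the water range, 174 of 2191 (7.94%) were lower by those criteria. The other 404 features with 1 gene in the range had a median ratio of 1.07. In a fit across all 2861 features that could be tested (limma on quantile-normalized log2 values, Benjamini-Hochberg adjusted p under 0.05), 32 of the 33 genes were among the 740 called lower, against 25.9% of all tested features (44.1% in either direction) and 28.7% of those with 1 gene in the water range. The rule used the same contrast, so this count carries no further information. SWAP70 was the gene that did not pass.

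The 6 genes that handle RNA and ribosomes included the deepest ratio of all. AT1G08845 encodes a ribosomal protein of the L18 family, whose members bind the small RNA of the large ribosomal subunit. Its water values were 0.0912 at the lowest, 0.157 at the median and 0.221 at the highest. After proline they were 0, 0.0110 and 0.0541, the 0 being replicate 2. The ratio was 0.130, from a water mean of 0.157 ± 0.0507 to a proline mean of 0.0203 ± 0.0213 (SD, n = 6). The SD after proline is as large as the mean, and all 6 values lie near the lower end of the scale, so the size of the ratio is loosely set.

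AT2G37510 and AT3G08000 encode small RNA-binding proteins with an RNA recognition motif, and they differed in brightness far more than in ratio. AT2G37510 was among the brightest of the 33, with water values of 1.15, 1.54 and 1.74 (lowest, median and highest). Its proline values of 0.778, 0.841 and 0.890 were the most tightly grouped of any gene here, with a coefficient of variation of 4.95%, and the ratio was 0.559. AT3G08000 ran from 0.101 to 0.138 in water (median 0.124) and from 0.0398 to 0.0865 after proline (median 0.0648), with a ratio of 0.523. AT5G04600, another protein with this motif, had a ratio of 0.565. AT2G19870, of a family that methylates transfer and ribosomal RNA, had one of 0.586. AT3G12930, related to the Iojap protein known from maize plastids, had the shallowest ratio of the 6, 0.695. The median ratio of these 6 genes was 0.562, close to the 0.559 of all 33.

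Among the 5 genes linked to DNA and chromatin the ratios ran from 0.332 to 0.735. DRT101 is placed here by its name, given for DNA damage repair and toleration. Its protein belongs to a family of sugar phosphate mutases that serve the synthesis of UDP-N-acetylglucosamine. DRT101 had water values of 0.0856, 0.122 and 0.192 and proline values of 0.0126, 0.0481 and 0.0680, again as lowest, median and highest. Its coefficient of variation was 31.6% in water and 46.4% after proline, so the ratio of 0.332 came from scattered values in both groups.

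AT4G25290, which encodes a protein with a photolyase-like domain, was the brightest of the 33 genes in water. Photolyases repair ultraviolet damage to DNA with the energy of light, and related proteins serve as light receptors. Its water values were 1.31, 1.69 and 2.15, and its proline values 0.742, 0.799 and 0.918. The mean went from 1.72 ± 0.344 to 0.813 ± 0.0745 (SD, n = 6), a ratio of 0.474, and the lowest water value was 1.43 times the highest proline value. Unlike most of the 33, this gene scattered more in water (coefficient of variation 20.1%) than after proline (9.16%).

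AT1G03810, with an oligonucleotide-binding fold, had water values of 0.210, 0.218 and 0.254 and proline values of 0.0524, 0.0950 and 0.164, a ratio of 0.431. AT2G03390 is placed here only by a motif shared with the bacterial repair proteins UvrB and UvrC. The motif does not show a role in DNA repair. This gene had the shallowest ratio of all, 0.735. Its values were 0.338, 0.380 and 0.398 in water and 0.240, 0.277 and 0.304 after proline. AT1G09200 encodes histone H3.1, the form of histone H3 that is deposited when DNA is copied. It is 1 of several near-identical histone genes of Arabidopsis, which an array feature may not tell apart, so its values are uncertain as to the gene. They were 0.149, 0.185 and 0.210 in water and 0.0869, 0.107 and 0.148 after proline. Its groups came nearest to overlap of all 33, the lowest water value being 1.01 times the highest proline value.

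Genes of plastid lipids and lipid transfer ranged widely in brightness. AT2G35490 encodes a fibrillin, a protein that coats lipid droplets and membranes of plastids. Its values in water were 0.183, 0.210 and 0.240 and after proline 0.0593, 0.0826 and 0.0993. The ratio was 0.383, from 0.210 ± 0.0222 to 0.0804 ± 0.0159 (SD, n = 6), and the gap between the groups was wide, the lowest water value being 1.84 times the highest proline value. Only AT2G33180 had a wider one among the 33.

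AT5G16230 belongs to the stearoyl-acyl carrier protein desaturases, which place the first double bond in plastid fatty acids. It was the dimmest of the 33 genes in water, with values of 0.0932, 0.106 and 0.126, and it had proline values of 0.0335, 0.0469 and 0.0679, a ratio of 0.447. AT1G24360 encodes a 3-oxoacyl-acyl carrier protein reductase, which carries out a reduction in each round of plastid fatty acid synthesis. It was brighter and its ratio shallower, 0.731, with water values of 0.919, 1.02 and 1.11 against 0.682, 0.731 and 0.823. AT1G12100, of the lipid transfer protein family, had 0.154, 0.196 and 0.207 in water and 0.0643, 0.118 and 0.147 after proline, a ratio of 0.588. The ratios of these 4 genes had a median of 0.518.

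Transport and cofactor genes were AT2G32040 and AT5G03900. AT2G32040 encodes a folate carrier of the plastid envelope, related to folate carriers of trypanosomatids. It had 0.274, 0.317 and 0.343 in water and 0.0879, 0.193 and 0.260 after proline. The proline samples differed among themselves, with a ratio of 0.340 in replicates 1 and 2, 0.571 in replicates 3 and 4 and 0.816 in replicates 5 and 6, around 0.579 over all. AT5G03900, annotated to an iron-sulphur cluster biosynthesis family, went from 0.567, 0.650 and 0.701 to 0.311, 0.387 and 0.511, a ratio of 0.602. In both genes the ratio in replicates 1 and 2 was the lowest of the 3.

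The 7 signalling and regulatory genes had ratios from 0.280 to 0.615. AT4G33500 encodes a protein phosphatase of the 2C type, an enzyme class that removes phosphate from serine and threonine. Its water values were 0.222, 0.282 and 0.414 and its proline values 0.0307, 0.0883 and 0.127. The ratio of 0.280 rested on means of 0.295 ± 0.0649 and 0.0826 ± 0.0389 (SD, n = 6), and in replicates 5 and 6 it was as low as 0.109.

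SWAP70 is the Arabidopsis counterpart of a mammalian signalling protein of the same name. In water it was among the steadier genes, at 0.144, 0.163 and 0.179. After proline it ran from 0 in replicate 4 over a median of 0.0759 to 0.140 in replicate 5, the latter close to the lowest water value. Its ratio was 0.0224 in replicates 3 and 4, 0.491 in replicates 1 and 2 and 0.780 in replicates 5 and 6, so the overall 0.426 averages very unlike samples. This is the gene that did not pass in the fit, and it passed when proline replicate 3, 5 or 6 was left out. All 33 genes were then called lower, among 696 of 2871, 717 of 2871 and 699 of 2878 tested features called lower. The rule used the same contrast, so these counts carry no further information.

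AT1G44830 encodes a transcription factor of the AP2/ERF family, which includes the regulators of ethylene, drought and cold responses. It had 0.135, 0.167 and 0.193 in water and 0.0410, 0.0956 and 0.105 after proline, a ratio of 0.509. AT4G16490, with armadillo repeats that bind other proteins, had 0.224, 0.246 and 0.284 in water and 0.0849, 0.130 and 0.185 after proline, a ratio of 0.526. F-box proteins, which choose targets for ubiquitination, were represented by AT3G44810 and AT3G06570. AT3G44810 had 0.164, 0.183 and 0.223 in water and 0.0841, 0.117 and 0.133 after proline, a ratio of 0.597. AT3G06570 was brighter and steadier, with a mean of 1.08 ± 0.050 in water, 0.665 ± 0.0521 after proline (SD, n = 6) and a ratio of 0.615. AT1G80450, with the VQ motif of partners of WRKY transcription factors, had a ratio of 0.603.

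Both genes placed under cell walls and glycans had shallow ratios and were steady. AT1G11730, of a galactosyltransferase family, had 0.433, 0.499 and 0.536 in water and 0.273, 0.309 and 0.348 after proline, a ratio of 0.632. Its ratios within replicates 1 and 2, 3 and 4, and 5 and 6 were 0.591, 0.662 and 0.642, the closest agreement among the 33 genes. AT5G62360, of the inhibitors of invertase and pectin methylesterase, had 0.323, 0.368 and 0.441 in water and 0.239, 0.280 and 0.303 after proline, a ratio of 0.732.

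For 7 genes no role is stated here, and they spanned nearly the whole range, from 0.273 to 0.712. AT2G33180 had the clearest separation of the 33. It had 0.217, 0.280 and 0.305 in water and 0.0463, 0.0759 and 0.0938 after proline, so that the lowest water value was 2.31 times the highest proline value. Its ratio was 0.273, from 0.265 ± 0.0381 to 0.0722 ± 0.0209 (SD, n = 6), and lay between 0.238 and 0.310 in the 3 pairs of replicate numbers. AT2G43990 was tight in water, at 0.121, 0.128 and 0.146, and scattered after proline, at 0.0190, 0.0537 and 0.0940, with a ratio of 0.398. AT1G53260 had 0.105, 0.125 and 0.144 in water and 0.0336, 0.0663 and 0.1003 after proline, a ratio of 0.523 with the groups nearly touching. AT1G50020, AT5G42070 and AT2G21720 had ratios of 0.525, 0.528 and 0.574, and AT4G19430 had 0.712.

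**Figure D2:**
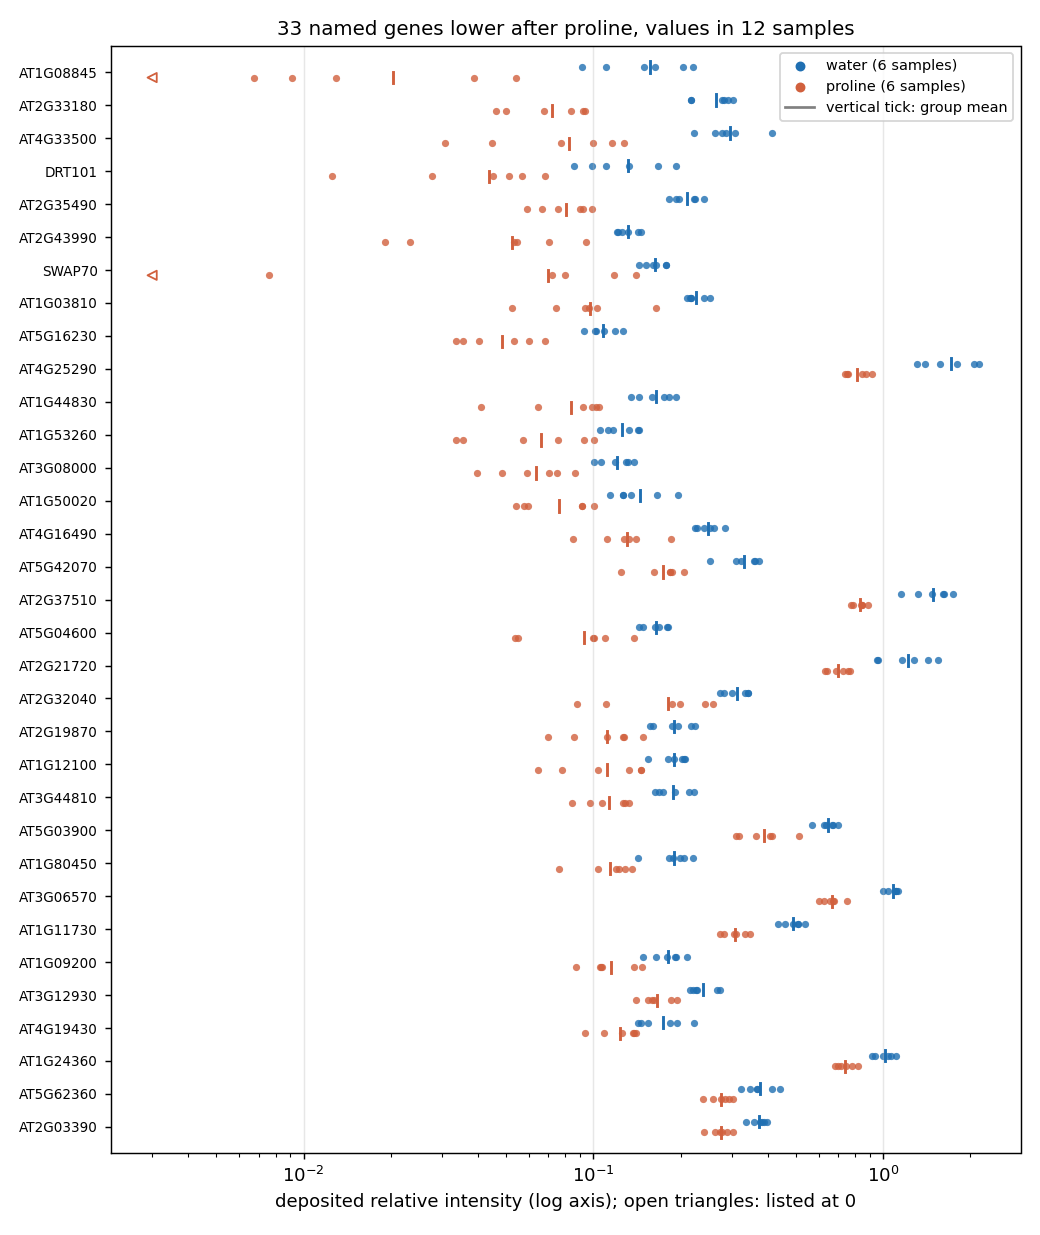
Deposited relative intensity of each of the 33 genes in the 6 water samples and the 6 proline samples (logarithmic axis, 1 point per sample, vertical ticks for group means, open triangles for values listed at 0), ordered from the lowest ratio at the top. The groups do not overlap in any gene, as the rule requires, and relative to their mean the proline values spread more than the water values in 27 of the 33 genes.

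Relative to their means, the genes scattered more after proline than in water, while the SD was wider in water in 17 of the 33. The median coefficient of variation was 12.04% in water, from 4.62% in AT3G06570 to 32.4% in AT1G08845, and 25.4% after proline, from 4.95% in AT2G37510 to 105% in AT1G08845. It was higher after proline in 27 of the 33. In the other 404 features with 1 gene in the water range the medians were 16.5% and 19.0%. The rule required the absence of overlap, which favours steady genes, and a lower mean gives a higher coefficient where the error is constant, so these values are not tested against each other.

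The depth of the difference was not even over the replicates. The labels number the samples of each group from 1 to 6. Within a group the deviations of replicates 1 and 2, 3 and 4, and 5 and 6 from the group mean correlated between 0.0488 and 0.321 over 2674 features. Other pairings within a group are not given here, so these values do not show that successive numbers belong together. The median ratio over the 33 genes was 0.491 within replicates 1 and 2, 0.581 within replicates 3 and 4 and 0.620 within replicates 5 and 6. Replicates 1 and 2 gave the lowest of the 3 ratios in 19 genes, replicates 3 and 4 in 5 and replicates 5 and 6 in 9. In the other 404 features the medians were 1.04, 1.15 and 1.07 in the same order. The 3 ratios of a gene lay within 1.3 times of each other in 7 genes and differed by 1.5 times or more in 13, and in 7 genes at least 1 of them was above 0.75. No gene had one above 1, which the absence of overlap fixes.

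**Figure D3:**
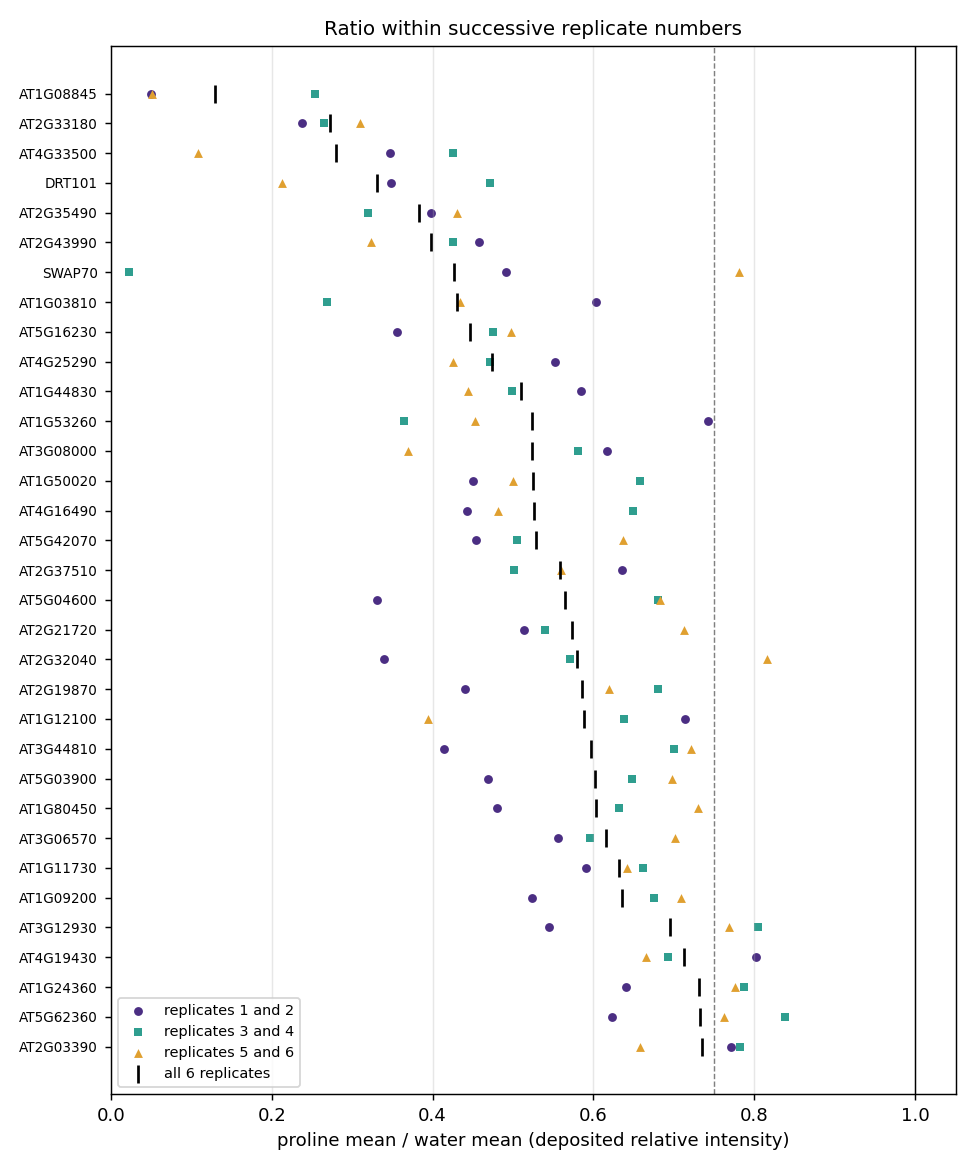
Ratio of proline mean to water mean within replicates 1 and 2, 3 and 4, and 5 and 6 of both groups (symbols) and over all 6 replicates (black ticks) for each of the 33 genes; lines mark 0.75 and 1. SWAP70 and AT4G33500 have widely separated symbols, and those of AT1G11730 nearly coincide.

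Means of the 3 replicate pairs were compared as highest over lowest, which a lower mean raises where the error is constant. The comparison was not made for the other features, so nothing is read from it. In 25 of the 33 genes these means differed more after proline than in water. Exceptions, named after their values were seen, were AT2G21720, whose water values ran from 1.55 in replicate 1 to 0.954 in replicate 5, and AT4G25290, whose water values ran from 1.31 in replicate 1 to 2.15 in replicate 5. The lowest proline value came from replicate 1 or 2 in 21 of the 33 genes (63.6%), and in 168 of the other 404 features (41.6%), a smaller share. Relative to its group mean, the median gene stood at 88.3% in proline replicate 1 and 93.8% in replicate 2, and at 106% and 111% in replicates 5 and 6. Over the other 404 features those samples stood at 95.6%, 96.9%, 103% and 103%, a smaller range. In water the median gene lay between 95.5% and 104% of its group mean in every sample. The other features moved in the same order among the proline samples, and their part in the result was not tested. Deviations from the group mean, compared between same-numbered water and proline samples over the 33 genes, correlated between -0.312 and 0.336.

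**Figure D4:**
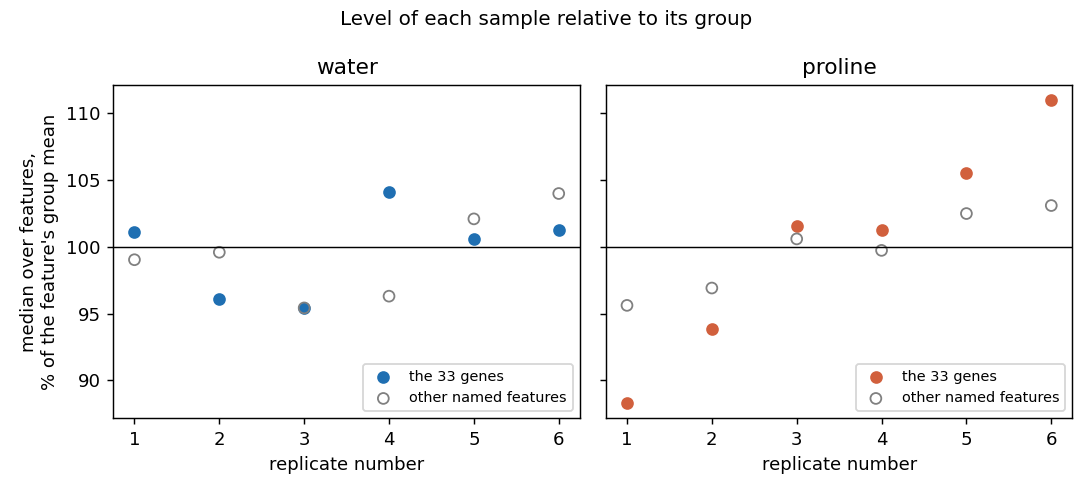
Median over the 33 genes (filled) and over the 404 other features with 1 gene in the water range (open) of each sample's value as a percentage of the feature's group mean, by replicate number, for water and proline. Among the proline samples the 33 genes range from 88.3% in replicate 1 to 111% in replicate 6.

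Genes related to the 33 by family or pathway could be examined in part. Of 14 fibrillin genes, 5 had a feature with 1 gene, and 4 could be tested. AT2G35490, the member described above, was the only one of the 4 that was called lower, and none was called higher. That is 1 of 4, beside 25.9% of all tested features, and it is the gene that the rule itself picked. AT5G09820, a fibrillin linked to plastoquinone synthesis, had water values of 0.0794, 0.139 and 0.259 and proline values of 0.113, 0.146 and 0.180, which overlap, with a log2 change of -0.04 ± 0.28 (SE, limma adjusted p = 0.930). For AT2G46910 the log2 change was -0.16 ± 0.80 (SE, limma adjusted p = 0.891) and for AT5G19940 -0.32 ± 0.92 (SE, limma adjusted p = 0.808), both at water means under 0.1 and with zeros. The sign of all 3 turned under some alternatives. AT1G51110 was listed at 0 in all 6 proline samples and had a water mean of 0.0296 ± 0.0254 (SD, n = 6), so it was not tested. The median log2 change of the 4 tested was -0.24, against -0.12 for all tested features. That median includes AT2G35490, which the rule picked as lower, so nothing is read from it. The other 3 stood at -0.04, -0.16 and -0.32.

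Of 18 genes of DNA damage tolerance and repair, DRT101 and DRT100 had a feature with 1 gene, and DRT100 was listed at 0 on all 12 arrays. DRT101 was also the only one of 5 genes of UDP-N-acetylglucosamine synthesis with such a feature. No feature with 1 gene was found for any of 9 clade A protein phosphatases of abscisic acid signalling or of 7 genes of proline synthesis and breakdown.

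Few genes lay near the ratio limit, and more were held out by overlap of the groups. AT2G03390 (0.735), AT5G62360 (0.732), AT1G24360 (0.731) and AT4G19430 (0.712) were the 4 nearest to the limit of 0.75 from inside. Just outside it lay AT1G21500 with a ratio of 0.828 and AT2G19280 with 0.901. These are the 2 further genes without overlap, not counting 1 gene that the rule leaves out. A ratio of 0.75 or less with overlapping groups was found in 52 features. The nearest of these was AT2G03200, whose ratio was 0.490 and whose lowest water value of 0.260 lay just below its highest proline value of 0.266. Inside, AT1G09200, AT4G19430, SWAP70 and AT1G80450 came closest, at 1.01, 1.02, 1.03 and 1.04 times. Of the genes that met the other criteria, 4 had a water mean under 0.1, the nearest being AT2G32640 at 0.0771, and 3 had one of 2 or more, the nearest being AT5G36470 at 4.19.

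The scaling of the arrays changed how many genes met the criteria in each direction. As deposited, 35 features with 1 gene were lower and 93 higher. After the column medians were equalized the counts were 57 and 67, and after quantile normalization 62 and 60. All 33 genes met the rule again after median scaling, when 51 genes met it in all. After quantile normalization 31 of them did among 55, while AT1G53260 and AT1G12100 came to overlap, with lowest water values of 0.103 and 0.149 against highest proline values of 0.109 and 0.154. Over all tested features the log2 change had a median of 0.06 as deposited, -0.06 after cyclic loess, -0.12 after quantile normalization and -0.14 after median scaling. The median ratio of the 33 genes was 0.559 as deposited, 0.487 after median scaling and 0.509 after quantile normalization. That these ratios stay below 1 under a rescaling of whole arrays follows largely from the choice of the genes.

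**Figure D5:**
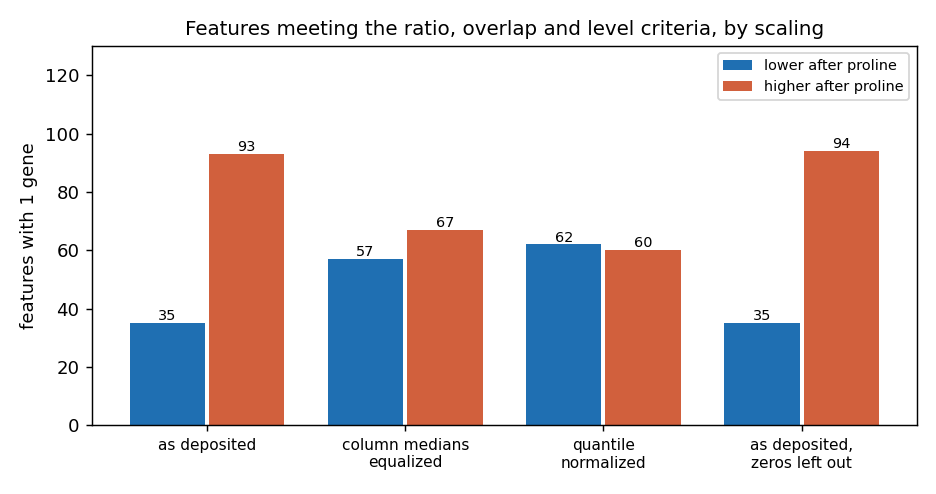
Number of features with 1 gene that met the level, ratio and overlap criteria in each direction (left-out genes counted) with values as deposited, with column medians equalized, after quantile normalization, and as deposited with zeros left out. Higher features outnumber lower ones 93 to 35 as deposited and stand at 60 to 62 after quantile normalization.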

How the data were processed

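RNA from 6 water and 6 proline samples, grouped by their titles, was measured on 12 arrays. The authors deposited relative intensity values on a linear scale, never negative and with a highest value of 100. Their background subtraction and array scaling are not given in the sources used here. Levels and ratios come from the deposited intensity values with zeros included. Gene names are those of GEO's old platform annotation, and all 33 were found among the loci of the TAIR10.1 assembly. Of the 33, 5 were also listed on features with several genes, which were not used.

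For the fit across all features, log2 intensities (zeros left as missing values) were quantile normalized, because log2 column medians ranged over 0.345. Features with at least 4 values in each group (2861) were tested two-sided by limma 3.58.1 in R 4.3.3, and p-values were adjusted by Benjamini-Hochberg with a threshold of 0.05. Alternatives were other scalings, treatments of zeros and filters, the replicate number as a block, averaged replicates and leaving out each sample. Every one of the 33 genes is named, and sample values are given for the 12 with the lowest ratio and up to 2 more in each role group. The genes and the lists were chosen with earlier results of these data known. The labels give no meaning for the replicate numbers. In the data, water and proline samples of 1 number deviated together in all 6 pairs (correlations of 0.180 to 0.406 over 2674 features). Over the 33 genes alone this did not hold in every pair. The numbers may therefore pair the samples, and the cause was not tested. Printed SEs and adjusted p-values come from the fit without the replicate number as a block. Signal over background is not known, so the precision given here rests on the number of arrays. Since the origin of the replicates is not given, that precision may not extend to separate plants.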

Additional observations from a re-analysis of the deposited data

Results flagged for a closer look

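Among 82 groups of 6 values (the 33 genes, 3 further fibrillin genes and 5 green tissue markers in water and after proline), 2 held a sample far from the rest by Dixon's limit, where chance gives about 4.1. The fibrillin gene AT5G19940 had an intensity of 0.126 in proline replicate 3, with the other 5 proline values between 0 and 0.0337.
PSBW, a marker of green tissue, had an intensity of 38.1 in water replicate 1, with the other 5 water values between 44.5 and 47.5.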

How the results depend on the processing

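The ratio was under 1 in all 33 genes after each rescaling of the intensities, and in every subset of samples, where the absence of overlap fixes it. The number of genes meeting the rule was 51 after median scaling and 55 after quantile normalization, 29 and 33 with ratio limits of 0.70 and 0.80, 33 with zeros left out, and 33 to 39 when 1 sample was left out. Those omissions moved AT5G62360, AT4G19430 or AT2G03390 just above the ratio limit (0.752 to 0.758). The median ratio was 0.487 after median scaling, 0.491 in replicates 1 and 2 alone and 0.620 in replicates 5 and 6 alone, and 0.546 to 0.568 with 1 sample left out. In the fit, 32 of the 33 genes passed with the replicate number as a block, as without it, among 1360 and 1263 features, and the block changed no call of these genes. SWAP70 passed after median scaling and without proline replicate 3, 5 or 6. With successive replicates averaged 686 of 2833 tested features passed in either direction (24.2%), and 351 of these were lower. Among those 351 were 29 of the 33 genes, while SWAP70, AT1G53260, AT1G12100 and AT4G19430 did not pass. Leaving out 1 sample gave 1186 to 1218 features in either direction out of 2865 to 2879 tested. Of these, 676 to 717 were lower, with 32 or 33 of the 33 genes among them. The balance of calls was 702 higher and 483 lower as deposited, against 523 and 740 after quantile normalization. Of the fibrillin genes that are not among the 33, AT5G09820 had a log2 change of 0.016 after cyclic loess, and of -0.25 to 0.16 with 1 sample left out, above 0 without water replicate 1 or 2 or proline replicate 5. With 1 sample left out AT2G46910 ranged from -0.58 to 0.42, above 0 without water replicate 3, 4 or 5 or proline replicate 2, and AT5G19940 from -0.98 to 0.30, above 0 without water replicate 3 or proline replicate 6. With zeros set to 0.5 times the lowest value above 0 of each array the log2 change was -2.79 for AT2G46910 and -1.14 for AT5G19940, so both depend on how zeros are treated, and neither passed. PSBY and PRK also missed with successive replicates averaged, and PRK after cyclic loess. The causes were not tested. Signal over background is not known for any of these genes.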
